A study of Homo sapiens with 2 samples.

Results

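STRAP and the proteins of the SMN-Gemin complex were examined at the RNA level in SK-N-AS (AS), a cultured line of human neuroblastoma in which MYCN is not amplified. The group of 10 genes was taken from a fixed list (STRAP, SMN1, SMN2, GEMIN2, DDX20, GEMIN4, GEMIN5, GEMIN6, GEMIN7 and GEMIN8), by finding the rows of the expression table that hold one of these symbols. All 10 were found, in 13 of the 62573 rows, and 8 of them reached 1 FPKM in 1 or both libraries. AS STRAP KO cells were a clone grown from a single sorted cell after CRISPR-Cas9 editing of STRAP, and AS WT cells were the unedited parental line. Both were untreated, and each gave 1 library of poly A selected RNA. FPKM is a read number scaled to the length of the transcript and to the mapped reads of the library, so levels of different genes can be compared. With 1 library per condition there is no replicate check on any difference and no p-value is given. Differences between the clone and the parental culture cannot be told apart from differences due to loss of STRAP.

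The SMN complex assembles the cores of the small nuclear ribonucleoproteins (snRNPs) of the spliceosome. In the cytoplasm it places a ring of Sm proteins on each small nuclear RNA (snRNA), after which the particle is imported into the nucleus. SMN and GEMIN2 form the part that holds the Sm proteins, GEMIN5 recognizes the snRNA, DDX20 (also called GEMIN3) is a DEAD-box helicase that pairs with GEMIN4, and GEMIN6, GEMIN7 and GEMIN8 form a connected module. STRAP is a WD-repeat protein that joins the complex through this module. Loss of SMN1 causes spinal muscular atrophy, a disease of motor neurons, and the near-identical copy SMN2 modifies its severity.

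Because the knockout is the premise of the comparison, the edited exon is shown first. STRAP lies on the plus strand of chromosome 12, from 15882387 to 15903478 in GRCh38, and its main transcript has 10 exons. The protospacer of the guide RNA is in exon 2, which is 136 bases long. The exon is given below from the reference genome (chr12:15883541-15883676, plus strand), with the protospacer and the AGG motif after it in capitals.

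STRAP exon 2: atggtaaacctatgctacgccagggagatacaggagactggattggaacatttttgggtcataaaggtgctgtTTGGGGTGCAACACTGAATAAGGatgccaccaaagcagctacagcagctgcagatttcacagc

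STRAP RNA was still abundant in the knockout clone. It had 179 FPKM in AS STRAP KO and 244 FPKM in AS WT, a log2 ratio of -0.45 (1.36-fold lower). From the whole-read steps of low values in the table, these levels rest on an estimated 8074 reads in AS STRAP KO and 10640 reads in AS WT. The exact 95% counting interval of the log2 ratio was -0.49 to -0.41, which covers counting error only. The FPKM is taken over the whole transcript, so a change within exon 2 need not be visible in it and the RNA level does not check the label. In the paper, PCR bands of the clone ran below the unedited band, and sequencing found a gap at the guide position. Its immunoblots found no detectable STRAP protein in the clone. The table held 13527 rows that reached 1 FPKM in 1 or both libraries, and 24.1% of them had a lower ratio than STRAP.

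STRAP stood above every other measured member in both libraries. Among the 6 other members in rows of their own, the range was 4.07 to 44.8 FPKM in AS STRAP KO and 8.82 to 43.3 FPKM in AS WT. STRAP was thus 4.00-fold above the highest of them in AS STRAP KO and 5.65-fold above it in AS WT. The order of levels below STRAP was GEMIN7, GEMIN6, GEMIN2, GEMIN5, GEMIN4, DDX20 and GEMIN8 in AS STRAP KO. It was GEMIN7, GEMIN6, GEMIN2, GEMIN4, DDX20, GEMIN5 and GEMIN8 in AS WT, so GEMIN5 was the member that changed place. No spread between replicates exists against which neighbours in this order could be set.

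**Figure D1:**
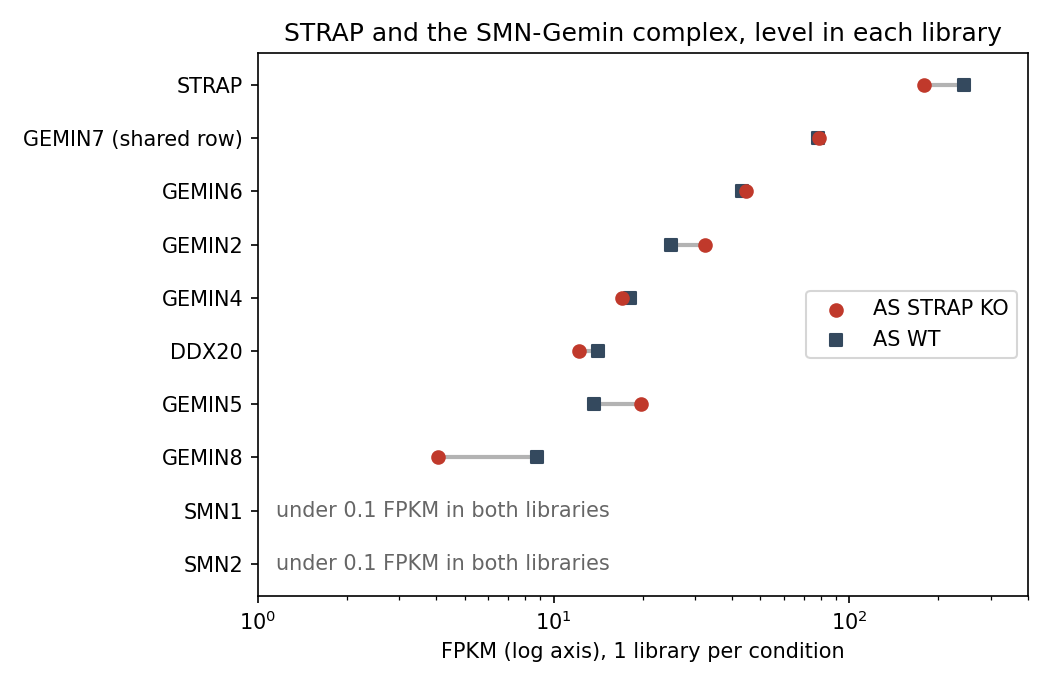
FPKM of each member (log axis) in the AS STRAP KO library (red circles) and the AS WT library (dark squares). STRAP lies highest at 179 and 244 FPKM, GEMIN8 lowest of the measured members at 4.07 and 8.82 FPKM, and SMN1 and SMN2 are under 0.1 FPKM in both.

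The largest difference among the 8 measured members was that of GEMIN8. GEMIN8, which links GEMIN6 and GEMIN7 to SMN, had 4.07 FPKM in AS STRAP KO and 8.82 FPKM in AS WT. Its log2 ratio was -1.11 (2.17-fold lower), with a counting interval of -1.31 to -0.92 that spans the 2-fold limit. It was the only member beyond 2-fold (1 of 8), where 10.6% of all rows were lower by that much. Of all rows, 9.15% had a lower ratio than GEMIN8. The call is lost when 1 FPKM is added to both values (log2 ratio -0.95). Its level rests on an estimated 323 reads in AS STRAP KO and 676 reads in AS WT, the fewest of the 8 measured members.

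GEMIN6, a protein with an Sm-like fold, had 44.8 FPKM in AS STRAP KO and 43.3 FPKM in AS WT. Its log2 ratio was 0.05, with a counting interval of -0.012 to 0.11 that includes 0. GEMIN7, its Sm-like partner and the contact of STRAP, stands in a row shared with MARK4 and PPP1R37. That row had 79.2 FPKM in AS STRAP KO and 78.6 FPKM in AS WT, a log2 ratio of 0.01, and the part of GEMIN7 in it is unknown. STRAP and GEMIN8 were therefore lower in the clone by FPKM, while the rows of GEMIN6 and GEMIN7 were nearly level (0.16 for GEMIN6 and 0.12 for GEMIN7 when both libraries were brought to the same total).

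Of the members that hold the Sm proteins and the snRNA, GEMIN2 and GEMIN5 were higher in the clone. GEMIN5 had 19.8 FPKM in AS STRAP KO and 13.7 FPKM in AS WT, a log2 ratio of 0.53 (1.45-fold, counting interval 0.45 to 0.62). This was the highest ratio of the group, and 80.4% of all rows had a lower one. GEMIN2 had 32.5 FPKM in AS STRAP KO and 25.0 FPKM in AS WT, a log2 ratio of 0.38 (1.30-fold, counting interval 0.24 to 0.52). Neither reached 2-fold.

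The helicase pair differed little between the libraries. DDX20 had 12.1 FPKM in AS STRAP KO and 14.1 FPKM in AS WT, a log2 ratio of -0.21 (counting interval -0.33 to -0.096). GEMIN4 had 17.1 FPKM in AS STRAP KO and 18.1 FPKM in AS WT, a log2 ratio of -0.085, with a counting interval of -0.19 to 0.013 that includes 0. The sign for GEMIN4 depended on scaling, being 0.022 when both libraries were brought to the same total.

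As a list, the complex had members on both sides of 0. Of the 8 members measured, 1 was lower by 2-fold or more, against 10.6% of all rows. None (0 of 8) was higher by 2-fold or more, against 8.31% of all rows. Among rows with at least 5 FPKM in 1 or both libraries, which all 8 members reached, these shares were 6.51% lower and 5.72% higher. GEMIN8 reached 5 FPKM only in AS WT, the library where it was higher. Among rows with at least 1 FPKM in both libraries, as all 8 members had, the shares were 5.74% lower and 4.87% higher. By any amount, 4 members were lower and 4 were higher, and 49.9% of all rows were lower. The median log2 ratio was -0.038 over the members and 0.0023 over all rows, and without STRAP it was 0.0098. The members ran from -1.11 for GEMIN8 to 0.53 for GEMIN5.

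**Figure D2:**
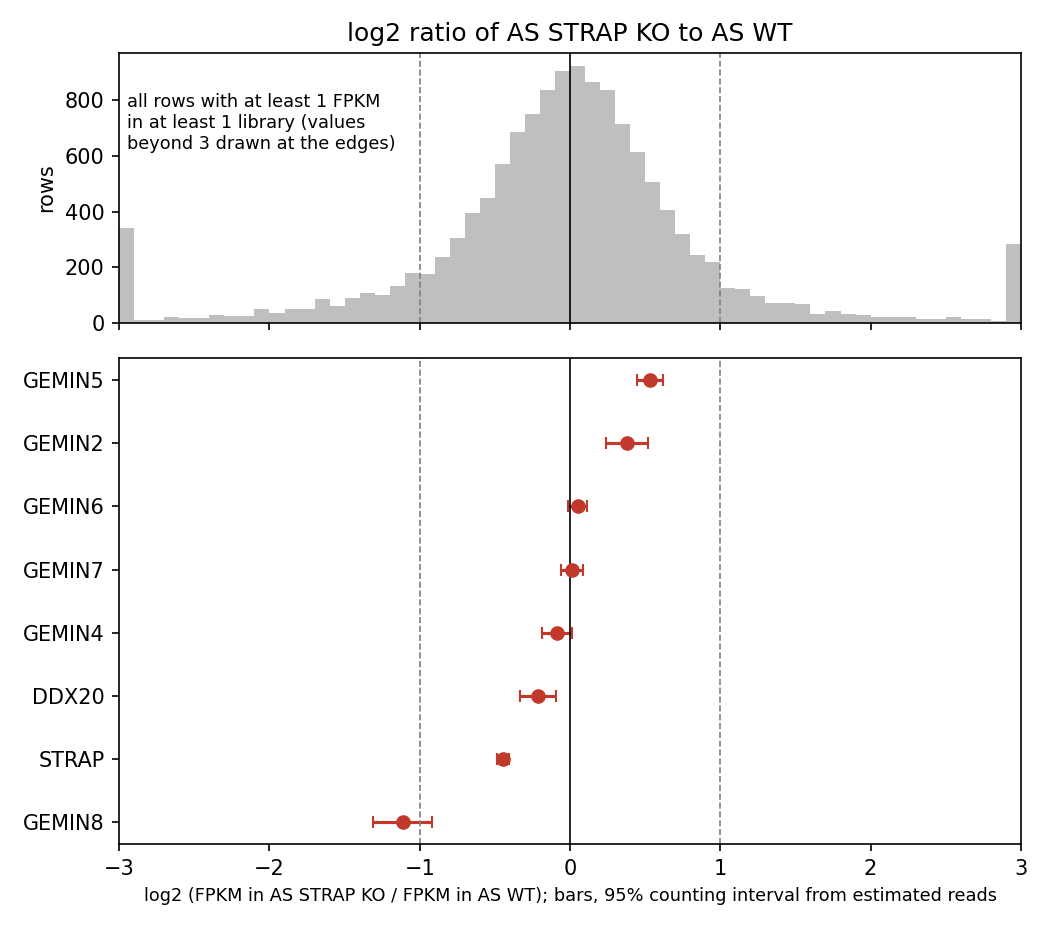
Log2 ratio of FPKM in AS STRAP KO to AS WT for all 13527 rows (upper panel, histogram) and for the 8 measured members (lower panel, points with 95% counting intervals). Dashed lines mark 2-fold, and GEMIN8 at -1.11 is the only member beyond them. The intervals of GEMIN4, GEMIN6 and GEMIN7 include 0. That of GEMIN7 is for its shared row, with reads estimated from the GEMIN7 transcript alone.

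SMN1 and SMN2, which encode the central protein of the complex, had no usable value. SMN1 had 2 rows, the first at 0 in both libraries and the second at 0.0888 FPKM in AS STRAP KO and 0 in AS WT. SMN2 had 3 rows, all at 0 in both libraries. SMN is needed by dividing cells, so these zeros were not read as absence of the RNA and no ratio was formed.

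The sequence of the copies shows how little separates them. In the reference, the main transcripts of SMN1 and SMN2 are both 1482 bases long with 9 exons, and they differ at 2 bases. One difference is in coding sequence, in exon 8 of these transcripts (known as exon 7 in the usual numbering), where it is C6T from SMN1 to SMN2, counted from the first base of the exon. This base is known to weaken inclusion of the exon in SMN2 RNA. The other, G236A, lies in the last exon outside the coding sequence. The coding part of the exon is shown from the reference for SMN1 (chr5:70951941-70951988, plus strand) and SMN2 (chr5:70076521-70076568, plus strand), with the differing base in capitals.

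SMN1: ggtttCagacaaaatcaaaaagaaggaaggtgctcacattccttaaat

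SMN2: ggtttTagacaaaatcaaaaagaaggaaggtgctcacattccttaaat

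The reads were 75 bases long, so each member was asked how many of the 75-base windows inside its exons occur once in the hg38 genome. Windows that cross exon junctions were not counted. For SMN1 and for SMN2, 75 of 838 windows (8.95%) were found once on the main chromosomes, and 0 of 838 once the alternative contigs of the assembly were included. For STRAP, GEMIN2, DDX20, GEMIN4, GEMIN5 and GEMIN7 all windows were found once. The share was 95.5% for GEMIN6 and 94.97% for GEMIN8. All 8 members with a usable value had at least 94.97% of windows found once.

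**Figure D3:**
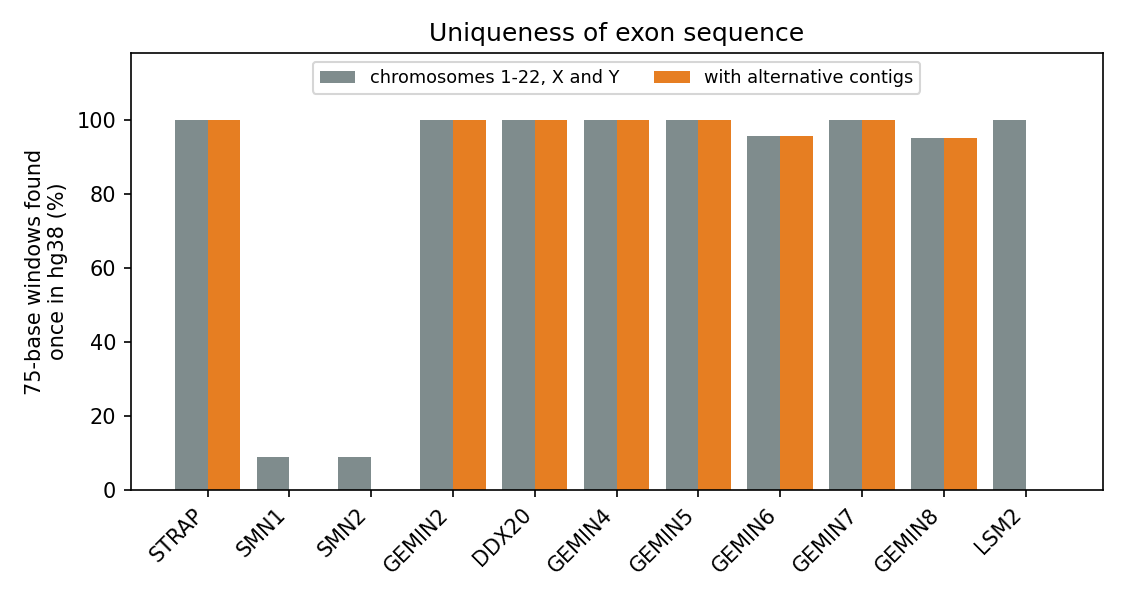
Percentage of 75-base windows inside exons that occur once in hg38, for the main chromosomes (grey) and with alternative contigs (orange). SMN1 and SMN2 stand at 8.95% and 0%, the other members at 94.97% or more under both counts, and LSM2 at 100% and 0%.

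Repeated rows went with zeros across the table. Of the protein-coding genes with 1 row, 15.7% of 17763 were at 0 in both libraries, against 69.9% of 1193 genes with 2 or more rows. The genes duplicated beside SMN1 and SMN2 were affected too. All 3 rows of NAIP were at 0, SERF1A and SERF1B did not exceed 0.291 FPKM in any row, and GTF2H2 had 0.942 FPKM in AS STRAP KO and 2.87 FPKM in AS WT in 1 of its 3 rows and 0 in the others. The sources used here do not state how reads with several matching places were counted, and the part of repeated sequence in the zeros was not tested.

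**Figure D4:**
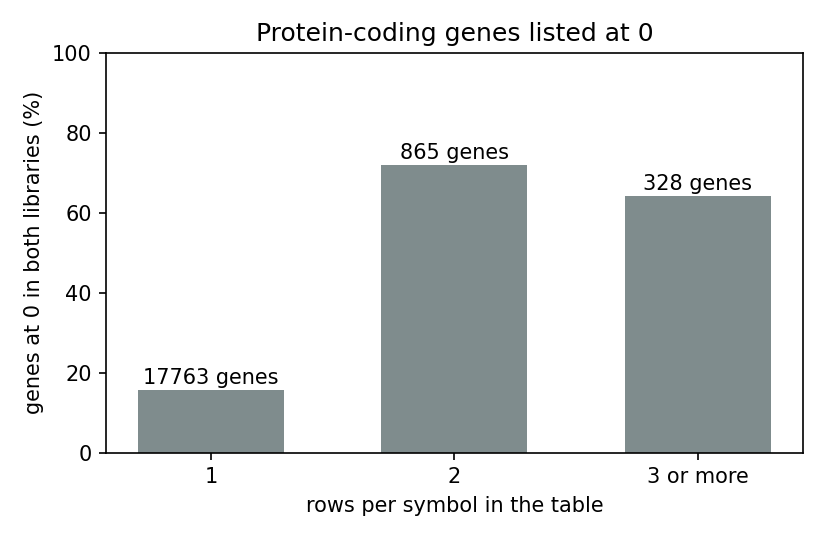
Percentage of protein-coding genes listed at 0 in both libraries, by the number of rows their symbol has in the table (gene numbers above the bars). It is 15.7% with 1 row, 72.0% with 2 rows and 64.3% with 3 or more.

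Genes that work with the SMN complex, and signaling partners of STRAP outside it, were examined on 6 lists with 45 genes, of which 43 reached 1 FPKM. The remaining 2 were LSM2, with 6 rows, and FBL, the nucleolar methyltransferase fibrillarin, with 2 rows, all at 0. As for SMN1 and SMN2, these zeros were not read as absence of the RNA. Among protein-coding genes with 2 or more rows, 69.9% were at 0 in both libraries. For LSM2 all windows were found once on the main chromosomes and none once alternative contigs were included, whereas those of FBL were found once under both counts. Over all lists 1 of 43 genes was lower by 2-fold or more, against 10.6% of all rows. By that much 4 of 43 were higher, against 8.31% of all rows. Among rows with at least 5 FPKM in 1 or both libraries, these shares were 6.51% lower and 5.72% higher. Not every list gene reached 5 FPKM, and SMAD7 did so only in AS STRAP KO. Among rows with at least 1 FPKM in both libraries, as all 43 genes had, the shares were 5.74% lower and 4.87% higher.

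The Sm proteins, the cargo of the complex, were mostly lower in the clone. Of 8 Sm genes, 7 had a lower FPKM in AS STRAP KO, against 49.9% of all rows, and the median log2 ratio was -0.36 against 0.0023 over all rows. By 2-fold or more 1 of 8 was lower, near the 10.6% of all rows. SNRPD2 had 641 FPKM in AS STRAP KO and 987 FPKM in AS WT, a log2 ratio of -0.62. SNRPB, in a row with ZNF343 and AL049650.1, was the only one that was not lower, at 224 FPKM in AS STRAP KO and 210 FPKM in AS WT. The gene beyond 2-fold was SNRPN, which encodes the Sm protein of neurons, at 40.9 FPKM in AS STRAP KO and 103 FPKM in AS WT. SNRPN shares its row with SNURF and AC124312.1, and the median over the other 7 genes was again -0.36. SNRPD3 also stands in a shared row, with GGT1, and only 65.3% of the windows of SNRPG were found once in the genome. When both libraries were brought to the same total the median was -0.25, with the same number of genes lower.

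The genes for methylation of Sm proteins before assembly, and for their delivery to SMN, differed in direction. PRMT5, the arginine methyltransferase, had 269 FPKM in AS STRAP KO and 149 FPKM in AS WT, a log2 ratio of 0.85 (1.81-fold). Its WD-repeat partner WDR77 had 76.0 FPKM in AS STRAP KO and 108 FPKM in AS WT, a log2 ratio of -0.50. These were the highest and lowest of 6 genes, with a median of -0.017, and CLNS1A, which carries Sm proteins to SMN, was at -0.13. None of the 6 reached 2-fold, which 10.6% of all rows did downward and 8.31% upward.

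The 7 genes of snRNA export, cap trimethylation and import lay on both sides of 0. The export receptor XPO1 had the highest log2 ratio at 0.52, with 151 FPKM in AS STRAP KO and 105 FPKM in AS WT. NCBP2, a subunit of the nuclear cap-binding complex, had the lowest at -0.39, with 111 FPKM in AS STRAP KO and 146 FPKM in AS WT. TGS1, the enzyme that trimethylates the snRNA cap, was at 0.39, and PHAX, the export adaptor, at -0.0056. As for methylation, 0 of 7 beyond 2-fold is read against 10.6% of all rows lower and 8.31% higher.

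The LSm proteins, relatives of the Sm proteins on U6 snRNA and in mRNA decay, had a median of -0.012 over 9 genes. None of the 9 was beyond 2-fold, beside 10.6% of all rows lower and 8.31% higher. LSM5 was lowest, with 90.96 FPKM in AS STRAP KO and 171 FPKM in AS WT (log2 ratio -0.91). LSM10, a subunit of the U7 snRNP that SMN also assembles, was highest, with 45.6 FPKM in AS STRAP KO and 37.0 FPKM in AS WT (0.30). Of 4 measured genes of the Cajal body or of SMN binding, WRAP53 was lowest at -0.59 and the SMN-binding zinc finger protein ZPR1 highest at 0.42. COIL, the scaffold coilin of the Cajal body, was at -0.45.

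The signaling partners of STRAP held all of the genes at least 2-fold higher. Of 9 genes, 4 were higher by 2-fold or more, against 8.31% of all rows, and 0 were lower by that much, against 10.6% of all rows. Among rows with at least 1 FPKM in both libraries, 4.87% were higher and 5.74% lower by that much. The list was chosen with earlier results of these data known, so these counts are a description only. Over the 9 genes the median log2 ratio was 0.43. With 1 FPKM added to both values only SMAD7 stayed beyond 2-fold (1 of 9). SMAD7, the inhibitory SMAD that STRAP holds at the TGF-β receptor, had 13.004 FPKM in AS STRAP KO and 3.99 FPKM in AS WT (log2 ratio 1.71). TGFBR2, the type II TGF-β receptor, had 10.8 FPKM in AS STRAP KO and 5.07 FPKM in AS WT (1.09). MAP3K5, the stress kinase ASK1, had 14.0 FPKM in AS STRAP KO and 6.65 FPKM in AS WT (1.08).

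PDPK1, the kinase PDK1 upstream of AKT, was at the 2-fold limit, with 20.3 FPKM in AS STRAP KO and 10.1 FPKM in AS WT (log2 ratio 1.00). It fell below the limit when ratios were centred on their median or on a trimmed mean, which left 3 of 9 genes beyond 2-fold. Only 67.3% of its windows were found once in the genome, so the share of its reads that belongs to near-identical sequence is uncertain. The type I receptor gene TGFBR1 was at 0.31 and the receptor SMAD gene SMAD3 at -0.24. NME1, in a row with NME2, was lowest at -0.40.

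**Figure D5:**
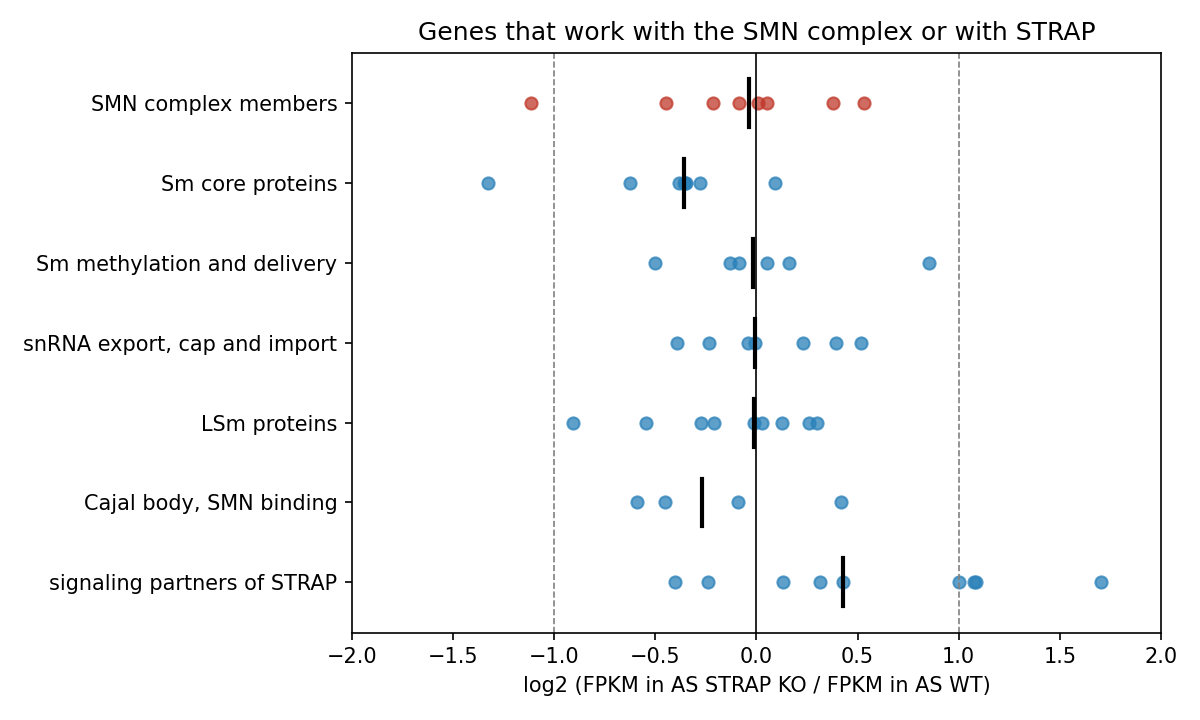
Log2 ratio of FPKM in AS STRAP KO to AS WT for the 8 measured members (red) and for 6 lists of genes that work with the complex or with STRAP (blue), with black bars at the medians and dashed lines at 2-fold. The Sm core list has its median at -0.36 and the signaling partners of STRAP have theirs at 0.43, with 4 of 9 genes at or beyond 2-fold.

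The genes around the measured members were read out as well. Within 1 Mb of STRAP, 4 genes reached 1 FPKM. DERA, an aldolase of deoxyribose phosphate, had 27.6 FPKM in AS STRAP KO and 31.7 FPKM in AS WT (log2 ratio -0.20). EPS8, a regulator of actin, had 9.39 FPKM in AS STRAP KO and 5.13 FPKM in AS WT (0.87). PTPRO, a receptor phosphatase, was at -1.10 and MGP, the matrix Gla protein, at -2.66. Genes next to STRAP thus differed in both directions, and the median over 6 protein-coding genes within 2 Mb was -0.0063. Within 5 Mb of STRAP it was 0.19, with 4 of 16 genes lower in the clone, and over chromosome 12 it was 0.048.

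For GEMIN8 on the X chromosome the median over 15 genes within 2 Mb was -0.19, with 9 lower in the clone. For GEMIN5 on chromosome 5 it was -0.26 over 6 genes, opposite in sign to GEMIN5 itself. For GEMIN2 on chromosome 14 it was 0.66 over 5 genes, of the same sign as GEMIN2. The median around GEMIN8 was nearer 0 within 5 Mb, at -0.032 with 17 of 32 genes lower, and it was 0.22 over the X chromosome. Medians within 2 Mb were -0.44 for DDX20 (16 of 22 lower), -0.33 for GEMIN7 (47 of 67 lower), -0.16 for GEMIN6 (11 of 21 lower) and 0.066 for GEMIN4 (7 of 18 lower). The neighbours thus had the sign of some members and not of others, and their part in the members' ratios was not tested.

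By level in both libraries, the genes most like STRAP were PDIA4, DRAP1, ELOB, ATP5MC2 and PDIA3. Likeness was the distance in log2 FPKM over the 2 libraries, from 0.029 for PDIA4 to 0.070 for PDIA3. PDIA4, a protein disulfide isomerase, had 178 FPKM in AS STRAP KO and 239.8 FPKM in AS WT. With only 2 libraries this likeness says nothing more than that the values are close.

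Markers fitted the labelled cell only in part. Of 8 sympathetic neuroblast markers, 4 reached 1 FPKM in AS STRAP KO and 5 in AS WT, with sums of 329.8 FPKM in AS STRAP KO and 437 FPKM in AS WT. TH, the first enzyme of catecholamine synthesis, and CHGA, chromogranin A of secretory granules, were listed at 0 in both, CHGA in 2 rows, where zeros are frequent as described above. All 6 markers of mesenchymal-type neuroblastoma reached 1 FPKM in both libraries and 5 of them were higher in AS STRAP KO. Their sums were 1196 FPKM in AS STRAP KO and 1571 FPKM in AS WT, because VIM, the intermediate filament vimentin, had 896 FPKM in AS STRAP KO and 1368 FPKM in AS WT. The leukocyte gene PTPRC was listed at 0 in 2 rows, and PECAM1 and EPCAM stayed below 1 FPKM in both libraries. The part of these marker differences in the values of the complex was not tested.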

How the data were processed

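RNA of both cell populations was read as single-end 75 bp reads with a strand-specific kit. The methods describe alignment to GRCh38 with GENCODE annotation in STAR and quantification in Cufflinks. Versions in the submitters' processing notes were 2.7.6 for STAR, 2.2.1 for Cufflinks and 2.18.0.12 for bcl2fastq, and the methods give another release of STAR. The authors deposited FPKM, normalized for transcript length and mapped reads. The table has 1 column per condition, and the sources used here do not state whether replicates were pooled.

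FPKM in AS STRAP KO was divided by FPKM in AS WT without a pseudocount and given as log2. Each symbol was read from its row of highest summed FPKM. Rows reaching 1 FPKM in 1 or both libraries were compared, and 2-fold was the limit for a call. Depth was estimated from low values of genes with a single transcript of at least 1500 bases, shortened by 200 bases. A gene at 1 FPKM had 26.9 reads per kilobase in AS STRAP KO and 26.0 in AS WT. Of the values used, 94.1% of 320 in AS STRAP KO and 95.7% of 368 in AS WT were within 0.1 of a whole read. Estimated reads use the main transcript, and intervals are exact (Clopper-Pearson) and cover counting error only. Sequences and positions come from GRCh38 with GENCODE 44. The depth estimate, the trimmed mean and the counts beyond 2-fold were tested on simulated data, and the other computations were not.

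Members and lists were chosen with earlier results of these data known. Named genes were all members, list genes beyond 2-fold or else the lowest and highest of a list, neighbours of STRAP within 1 Mb, the genes of the SMN duplication and the 5 rows nearest to STRAP. SNRPD2, SNRPB, CLNS1A, TGS1, PHAX, COIL, LSM2, FBL, TGFBR1, SMAD3, NME1 and VIM were named after their values were seen. Results of some genes, and of 1 list, are not reported here. Alternatives were other filters, pseudocounts and scalings. Software was Python 3.11.15 with SciPy 1.17.1, numpy 2.4.6, matplotlib 3.10.9 and pandas 2.3.3.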

Additional observations from a re-analysis of the deposited data

How the results depend on the processing

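Scaling both libraries to the same total raised log2 ratios by 0.11, giving -0.34 for STRAP and a median of 0.069 for the complex, and turned the sign of GEMIN4. For the lists, this scaling (tried after seeing the data) gave medians of -0.25 for the Sm core, 0.090 for Sm methylation, 0.10 for export and import, 0.095 for the LSm proteins, -0.16 for the Cajal body genes and 0.53 for the signaling partners. Scaling by the upper quartile, by the median or by a trimmed mean moved log2 ratios by at most 0.012. Adding 1 FPKM left 0 members beyond 2-fold, through GEMIN8. It left 1 of the 4 signaling partners, SMAD7, with TGFBR2 at 0.96, MAP3K5 at 0.97 and PDPK1 at 0.93 (tried after seeing the data). The share of all rows beyond 2-fold, in either direction, was 18.9% as reported. It was 10.6% when both libraries had to reach 1 FPKM, 12.2% with a minimum of 5 FPKM in 1 library and 11.7% with 1 FPKM added. The share was higher, at 25.7%, over all rows above 0 in both libraries, and 21.4% under the same total. Among the rows beyond 2-fold, 48.5% were lower under the same total, against 56.1% as reported. In the other settings, including SMN1 and SMN2 summed as 1 gene, 1 member was beyond 2-fold. No library could be left out, and no paired analysis was possible because each condition had 1 library.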

Other observations

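Some genes begin head to head with a member on the opposite strand, by the outermost annotated starts, and were looked up after the members' values were seen. EPS8 begins 58 bases from STRAP (its main transcript starts 92999 bases away) and had a log2 ratio of 0.87, where STRAP had -0.45. SRSF7, which encodes a splicing factor of the SR family, begins 40 bases from GEMIN6 (its main transcript starts 26849 bases from that of GEMIN6), with 265 FPKM in AS STRAP KO and 316 FPKM in AS WT (log2 ratio -0.25, where GEMIN6 had 0.05). INKA2, which encodes an inhibitor of the kinase PAK4, begins 992 bases from the start of DDX20, inside that gene. Its main transcript starts 16506 bases from that of DDX20. INKA2 had 2.02 FPKM in AS STRAP KO and 0.557 FPKM in AS WT (log2 ratio 1.86, where DDX20 had -0.21).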
